A study of Mus musculus with 6 samples.

Results

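The genes described here make, modify, activate, burn and store fatty acids. They are 39 genes chosen by symbol, and each was found as 1 row of a table of 29616 genes through the gene names of the GENCODE M21 annotation. All 39 passed the filter on low values that left 17442 genes for testing. By role, 4 belonged to de novo synthesis, 8 to desaturation and elongation, 4 to the activation of fatty acids to acyl-CoA, 4 to the carnitine shuttle and 10 to mitochondrial beta-oxidation. A further 1 encoded a peroxisomal enzyme, 2 acyl-CoA thioesterases, 2 lipases and 4 enzymes of glycerolipid synthesis.

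RNA sequencing was performed on bone cells of C57BL/6 mice (C57BL/6J in the study's methods), with 3 control libraries and 3 libraries from dexamethasone-treated mice. Dexamethasone is a synthetic glucocorticoid, and per the study's methods it was given daily at 0.08 µg/g for 4 weeks from 8 weeks of age. The study describes the material as Osteocalcin-positive cells from bones without marrow, whereas the labels say bone cells, and it names saline as the control of its dexamethasone model but calls the controls of the Osteocalcin-positive cells non-treated in another place. How many mice went into each library is not given in the sources used here. No transgene or gene deletion is named for these groups. The values are normalized counts, reads per gene divided by a size factor for each library, and the recovered depth was 72596611 to 89910728 reads per library.

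The cytosol builds fatty acids from citrate. Acly splits citrate into acetyl-CoA, Acaca carboxylates acetyl-CoA to malonyl-CoA, and Fasn joins these units into palmitate, which elongases lengthen and desaturases furnish with double bonds. Acyl-CoA synthetases attach coenzyme A to a fatty acid before it can be stored or burned. For oxidation, Cpt1 enzymes pass the acyl group to carnitine, the mitochondrial carrier and Cpt2 bring it inside, and dehydrogenases, hydratases and thiolases shorten it stepwise. Osteoblasts use fatty acids as one of their fuels, and glucocorticoids are known to alter lipid metabolism in many tissues.

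With dexamethasone, 10 of the 12 synthesis, elongation and desaturation genes of the 39 were higher at an adjusted p under 0.05 (83.3%, against 37.2% of all tested genes). Of the 15 shuttle and oxidation genes, 13 were lower (86.7%, against 35.2%). Of 16 other synthesis genes tested, 7 were higher and 5 lower. In the main fit the median log2 fold change was 0.67 for the 12 and -0.36 for the 15. These sizes varied over the alternatives, where Scd1 fell to 0.44 and Fads1 to 0.32, and Acadm reached -0.92 and Cpt1c -0.81. Scaling every library to the same total of normalized counts moved the median of all genes to -0.113 on the log2 scale, and 2 of the 10, Fads3 and Elovl1, then lost the call. Among the 13, Decr1 lost the call in some alternatives, given below. Fasn rose 2.50-fold, Elovl6 2.19-fold, the acyl-CoA synthetase Acsl4 2.77-fold and the cytosolic thioesterase Acot1 3.16-fold. Gpam, the mitochondrial enzyme that starts glycerolipid synthesis, fell to 0.388 of its control level, and the mitochondrial thioesterase Acot2 fell to 0.316. These 6 genes passed both cut-offs used by the study, an adjusted p under 0.05 and a log2 fold change (dexamethasone against control, here called log2 change) past 1 or -1. The 4 higher genes were 10.3% of the 39, against 11.7% of all tested genes, and the 2 lower genes were 5.13%, against 10.6% of all tested genes. The share of higher genes was within 1 gene of the background, and without control replicate 2 or dexamethasone replicate 2 the higher genes numbered 5. At an adjusted p under 0.05 alone, 15 of the 39 genes were higher (38.5%, against 37.2% of all tested genes) and 20 were lower (51.3%, against 35.2%). The remaining 4, Acacb, Acsl1, Ehhadh and Dgat2, did not pass the test. The control and dexamethasone libraries did not overlap for 14 genes that were higher (35.9%, against 38.4% of all tested genes) and for 19 that were lower (48.7%, against 36.4%). Over the 39 genes the median log2 change was -0.12, and over all tested genes it was 0.000712 with a 10th to 90th percentile range of -1.05 to 1.13. In these bulk samples, fewer cells that express a gene and less of its RNA per cell cannot be told apart.

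**Figure D1:**
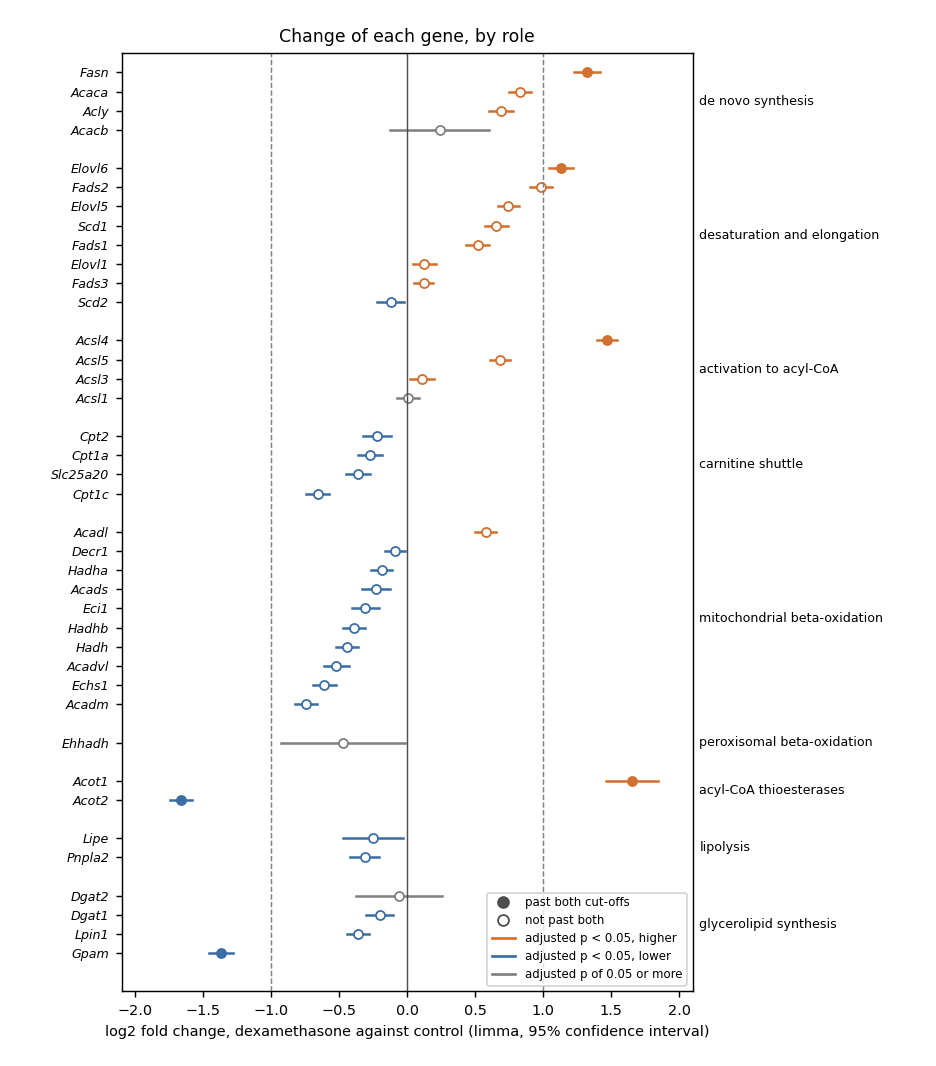
Log2 fold change of each of the 39 genes, dexamethasone against control, with its 95% confidence interval from limma (x axis), by role (y axis). Filled circles passed both cut-offs (dashed lines at -1 and 1), and orange, blue and grey mark genes that were higher, lower or not past an adjusted p under 0.05. The synthesis, desaturation and elongation genes lie mostly to the right and the shuttle and oxidation genes to the left, with Acadl as the exception among the latter. After quantile normalization Fads3, Elovl1, Acsl1 and Acsl3 lay left of 0 and Dgat2 right of 0, and at the same total Acsl1 and Acsl3 lay left of 0.

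The 250 bases upstream of the transcription start are shown for the 6 genes that passed both cut-offs, since they are the members with the largest changes. The sequences are from RefSeq on the GRCm38.p6 build, run 5′ to 3′ on the strand of the gene, and end at the base before the annotated start. Capitals mark, on either strand, the CCAAT box (CCAAT), the GC box (GGGCGG), the core of the sterol regulatory element (CACCCCAC), the E-box (CACGTG) and the single hexamer of the glucocorticoid receptor (AGAACA).
Fasn (ENSMUSG00000025153, chr11:120824548-120824797, minus strand): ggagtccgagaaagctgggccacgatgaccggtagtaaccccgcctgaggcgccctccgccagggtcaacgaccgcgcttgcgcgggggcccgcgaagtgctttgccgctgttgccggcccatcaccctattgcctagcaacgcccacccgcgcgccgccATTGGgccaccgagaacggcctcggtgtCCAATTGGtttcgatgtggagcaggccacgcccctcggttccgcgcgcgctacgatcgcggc
Elovl6 (ENSMUSG00000041220, chr3:129532136-129532385, plus strand): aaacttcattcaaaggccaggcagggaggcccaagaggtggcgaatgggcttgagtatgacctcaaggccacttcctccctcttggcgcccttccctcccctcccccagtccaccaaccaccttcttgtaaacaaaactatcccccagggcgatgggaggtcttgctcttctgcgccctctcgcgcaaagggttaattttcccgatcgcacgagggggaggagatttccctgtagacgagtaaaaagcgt
Acsl4 (ENSMUSG00000031278, chrX:142390536-142390785, minus strand): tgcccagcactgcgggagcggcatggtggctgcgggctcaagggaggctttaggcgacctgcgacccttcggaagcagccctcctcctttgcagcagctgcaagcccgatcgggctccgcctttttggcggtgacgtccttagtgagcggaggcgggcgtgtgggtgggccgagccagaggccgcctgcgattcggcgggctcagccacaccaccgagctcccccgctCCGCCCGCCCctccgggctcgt
Acot1 (ENSMUSG00000072949, chr12:84009252-84009501, plus strand): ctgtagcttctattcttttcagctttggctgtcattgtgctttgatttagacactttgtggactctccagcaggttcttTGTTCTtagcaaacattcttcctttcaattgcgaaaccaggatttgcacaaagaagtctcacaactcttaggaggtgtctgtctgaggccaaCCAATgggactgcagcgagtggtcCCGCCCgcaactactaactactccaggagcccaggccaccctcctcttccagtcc
Acot2 (ENSMUSG00000021226, chr12:83987611-83987860, plus strand): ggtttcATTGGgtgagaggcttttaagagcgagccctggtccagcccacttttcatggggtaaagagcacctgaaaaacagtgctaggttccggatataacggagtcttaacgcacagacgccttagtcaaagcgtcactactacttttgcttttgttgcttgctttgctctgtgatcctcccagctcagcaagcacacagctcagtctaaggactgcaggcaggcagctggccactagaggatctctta
Gpam (ENSMUSG00000024978, chr19:55127239-55127488, minus strand): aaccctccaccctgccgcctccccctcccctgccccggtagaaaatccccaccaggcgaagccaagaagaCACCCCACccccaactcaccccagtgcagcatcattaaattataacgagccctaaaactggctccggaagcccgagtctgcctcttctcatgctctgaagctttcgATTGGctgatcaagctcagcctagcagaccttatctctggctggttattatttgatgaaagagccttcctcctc

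Of the 39 genes, 33 were matched to a promoter of that set, with 37 promoters in all, and the frequency of each motif was compared with that over 32851 RefSeq promoters of the same length. Scd1, Scd2, Fads1, Decr1, Dgat1 and Dgat2 were not matched, so their promoters were not searched. A GC box stood in 64.9% of the member promoters and in 32.7% of all promoters, and a CCAAT box in 40.5% and 33.8%. The set of all promoters was not restricted to genes that passed the filter on low values, as all 39 members did. The E-box was found in 5.41% and 6.02%. The single glucocorticoid receptor hexamer was found in 13.5% of the member promoters, those of Acaca, Acot1, Acsl5, Hadh and Lpin1, and in 16.1% of all promoters. The full palindromic element (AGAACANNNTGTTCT) was in none of the 37 and in 3 of all promoters, 0.00913%. The sterol core was found in 8.11% of the member promoters, those of Acsl1, Echs1 and Gpam, and in 2.58% of all promoters. A direct repeat of the kind read by PPAR receptors (AGGTCANAGGTCA) was in none of the 37 and in 0.0335% of all. In the sequence of Fasn, a pair of CCAAT boxes on opposite strands overlap each other, as do both GC boxes of Acsl4, and the Elovl6 sequence holds none of the motifs. Gpam has another annotated promoter, which holds a GC box and is not printed. The 250-base windows of Acot1 and Acot2 each hold a CCAAT box. That of Acot1 also holds a GC box and an AGAACA on the minus strand, 166 to 171 bases before the start, and that of Acot2 holds neither. Of the members with the hexamer, Acaca, Acot1 and Acsl5 were higher and Hadh and Lpin1 lower at an adjusted p under 0.05. The part of the motifs in these changes was not tested.

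The first steps of synthesis moved together. The control libraries held 22780, 24951 and 23263 normalized counts of Acly, the citrate-splitting enzyme, and the dexamethasone libraries 40525, 36027 and 38097. Acaca, the acetyl-CoA carboxylase of the cytosol, held 8829, 9120 and 8980 normalized counts in the control libraries and 16916, 15323 and 15702 with dexamethasone. For Fasn the control libraries held 21975, 24778 and 23164 normalized counts, and the dexamethasone libraries 62552, 54644 and 57629. For each of these genes every dexamethasone library lay above every control library. The log2 change was 0.69 for Acly (standard error 0.0431, limma adjusted p = 3.06e-13), 0.83 for Acaca (standard error 0.038, limma adjusted p = 5.33e-16) and 1.32 for Fasn (standard error 0.047, limma adjusted p = 2.93e-18). Only Fasn passed the cut-off of 1. For Acaca, 26.8% of the 75-base positions of its transcript also occur in other genes, among them the gene model Gm5182, whose log2 change was 1.29. Acacb, the carboxylase of the outer mitochondrial membrane whose malonyl-CoA restrains Cpt1, was expressed at a low level. Its control libraries held 81.7, 72.4 and 78.2 normalized counts and its dexamethasone libraries 69.6, 111 and 98.8, which overlapped. Its log2 change was 0.24 (95% confidence interval -0.12 to 0.60, limma adjusted p = 0.226). The control level of Acacb was 8.04 normalized counts per kb of exon and that of Acaca 526.

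Among the elongases, Elovl6, which lengthens palmitate, was the only one to pass both cut-offs. Its control libraries held 2179, 2399 and 2353 normalized counts and its dexamethasone libraries 5169, 4924 and 5095, with no overlap. Its log2 change was 1.13 (standard error 0.0422, limma adjusted p = 7.65e-18). After quantile normalization it was 0.97, under the cut-off, and the adjusted p of Elovl6 was at most 1.9e-05 over all alternatives. Elovl5, which lengthens polyunsaturated acids, rose from 4738 ± 143 to 7942 ± 154 normalized counts (mean ± SD, n = 3 per group), a log2 change of 0.75 (limma adjusted p = 2.2e-15). Elovl1, an elongase of very long saturated acids, had a log2 change of 0.13 (limma adjusted p = 0.0079), which was 0.01 at the same total and -0.04 after quantile normalization and passed the test under neither (adjusted p over all alternatives 0.00128 to 0.742).

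The desaturases divided by isoenzyme and cluster. Scd1, a stearoyl-CoA desaturase that makes oleate, held 13412, 14993 and 13547 normalized counts in the control libraries and 22842, 21483 and 21767 with dexamethasone. Its near relative Scd2 held 82220, 92802 and 84322 normalized counts in the control libraries and 82661, 75381 and 80559 with dexamethasone. Scd1 was higher in every dexamethasone library, with a log2 change of 0.66 (standard error 0.041, limma adjusted p = 3.01e-13), whereas the Scd2 groups overlapped. That of Scd2 was -0.12 (95% confidence interval -0.22 to -0.02, limma adjusted p = 0.0291). Leaving out control replicate 2 gave -0.07 (limma adjusted p = 0.222) and leaving out dexamethasone replicate 2 gave -0.08 (limma adjusted p = 0.178), and over all alternatives the adjusted p of Scd2 was 3.82e-06 to 0.222. Per kb of exon, Scd2 was the more abundant of the pair in every library, and the ratio of Scd1 to Scd2 was 0.181 ± 0.00139 (SD, n = 3) in the control and 0.31 ± 0.0083 (SD, n = 3) in the dexamethasone libraries. In the control libraries Scd2 stood at the 99.1st percentile of all tested genes per kb.

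The genes of the front-end desaturase cluster, Fads1, Fads2 and Fads3, did not move equally. Fads2, which performs the first desaturation of polyunsaturated acids, held 6514, 7131 and 6774 normalized counts in the control libraries and 13929, 13055 and 13384 with dexamethasone. Those groups did not overlap, and their log2 change was 0.98 (standard error 0.0385, limma adjusted p = 2.13e-17), just under the cut-off of 1. Without control replicate 2 it was 1.02 and without dexamethasone replicate 2 1.01, both past it. Fads1, which acts later in the same route, rose from 15803 ± 868 to 22644 ± 824 normalized counts (mean ± SD, n = 3 per group), a log2 change of 0.52 (limma adjusted p = 2.11e-11). For Fads3 the log2 change was 0.12 (limma adjusted p = 0.00273), and it was 0.01 at the same total and -0.09 after quantile normalization, the latter with an adjusted p of 0.00283 in the opposite direction (adjusted p over all alternatives 0.000315 to 0.792).

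Taking the 12 genes of synthesis, desaturation and elongation as a group, 10 were higher (83.3%, against 37.2% of all tested genes) and 1, Scd2, was lower (8.33%, against 35.2%) at an adjusted p under 0.05, of which Fads3 and Elovl1 lost the call at the same total. Their median log2 change was 0.67. Their summed level per kb of exon was 36254, 40074 and 37238 normalized counts in the control libraries and 51862, 47749 and 49842 with dexamethasone.

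**Figure D2:**
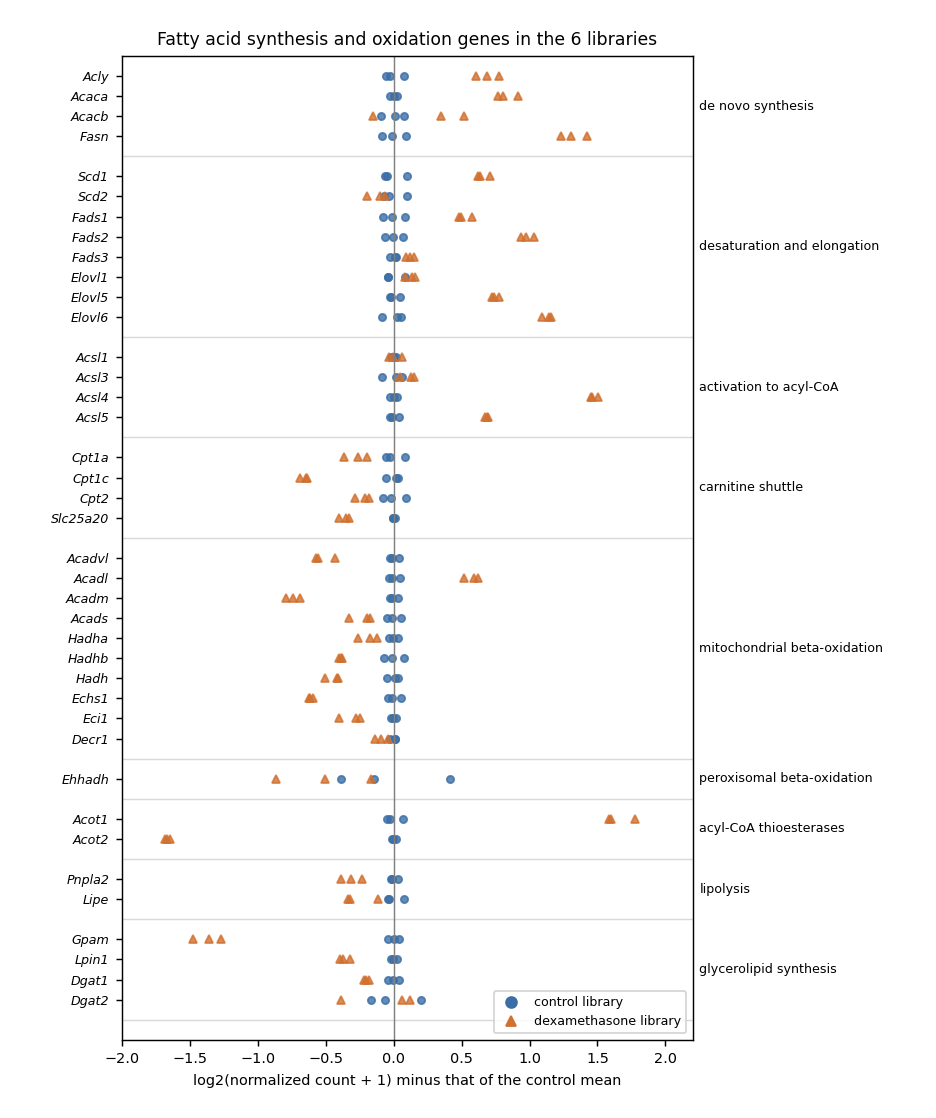
Each of the 39 genes in the 6 libraries, as log2(normalized count + 1) minus that of the control mean (x axis), by role (y axis). Blue circles are the 3 control libraries and orange triangles the 3 dexamethasone libraries. The triangles lie apart from the circles on the right for Fasn, Elovl6, Acsl4 and Acot1 and on the left for Gpam and Acot2, and they overlap the circles for Acacb, Scd2, Acsl1, Acsl3, Ehhadh and Dgat2.

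The long-chain acyl-CoA synthetases differed in response. Acsl4, which prefers arachidonate, held 5323, 5416 and 5207 normalized counts in the control libraries and 14624, 14542 and 15046 with dexamethasone. No library of one group came near the other, and the log2 change of 1.47, with a standard error of 0.0347 (limma adjusted p = 5.65e-22), was the highest among the synthetases of the 39 genes. Acsl5, found on mitochondria and the endoplasmic reticulum, rose from 5799 ± 149 to 9324 ± 73.5 normalized counts (mean ± SD, n = 3 per group), a log2 change of 0.69 (limma adjusted p = 5.4e-15). Acsl1, the isoenzyme prominent in fat and muscle, held 3511, 3543 and 3468 normalized counts in the control libraries and 3654, 3421 and 3497 with dexamethasone. The Acsl1 groups overlapped, with a log2 change of 0.01 (95% confidence interval -0.07 to 0.09, limma adjusted p = 0.893). At the same total it was -0.11 (limma adjusted p = 0.00511) and after quantile normalization -0.14 (limma adjusted p = 0.000311), and over all alternatives its adjusted p was 0.000311 to 0.977. For Acsl3, an isoenzyme of lipid droplets, the log2 change was 0.11 (limma adjusted p = 0.0218) with overlapping libraries, and it was -0.01 at the same total (limma adjusted p = 0.89) and -0.07 after quantile normalization (limma adjusted p = 0.0532), within 0.00567 to 0.89 over all alternatives. The ratio of Acsl4 to Acsl1 per kb of exon was 2.94 ± 0.0263 (SD, n = 3) in the control and 8.12 ± 0.313 (SD, n = 3) in the dexamethasone libraries.

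All 4 genes of the carnitine shuttle fell, and none reached the fold cut-off. Cpt1a, the liver-type carnitine palmitoyltransferase that sets the pace of import, fell from 13587 ± 705 to 11246 ± 647 normalized counts (mean ± SD, n = 3 per group), a log2 change of -0.27 (standard error 0.0425, limma adjusted p = 3.42e-06). The highest dexamethasone library of Cpt1a held 11838 normalized counts and the lowest control library 13060. Cpt1c, the isoenzyme best known from neurons, had 3692, 3886 and 3932 normalized counts in the control libraries and 2468, 2449 and 2377 with dexamethasone. It had the largest change of the shuttle, a log2 change of -0.66 (standard error 0.0405, limma adjusted p = 2.28e-13). Slc25a20, the carrier that exchanges acylcarnitine across the inner membrane, had a log2 change of -0.36 (limma adjusted p = 4.98e-08), and Cpt2, which returns the acyl group to coenzyme A, one of -0.22 (limma adjusted p = 0.000376). The libraries of the groups did not overlap for any of the 4 (100%, against 36.4% of all tested genes that were lower without overlap).

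The acyl-CoA dehydrogenases, each suited to a chain length, did not move in 1 direction. Acadm, the medium-chain enzyme, held 4939, 5146 and 4998 normalized counts in the control libraries and 3115, 2906 and 3007 with dexamethasone. Acadl, the long-chain enzyme, held 5045, 5321 and 5113 normalized counts in the control libraries and 7943, 7406 and 7763 with dexamethasone. The groups lay apart for each of the pair, in opposite directions. The log2 change was -0.74 for Acadm (standard error 0.0391, limma adjusted p = 1.05e-14) and 0.58 for Acadl (standard error 0.0377, limma adjusted p = 7.14e-13). Per kb of exon, the ratio of Acadl to Acadm was 2.003 ± 0.0134 (SD, n = 3) in the control and 4.996 ± 0.0368 (SD, n = 3) in the dexamethasone libraries. Acads, the short-chain enzyme, fell with a log2 change of -0.23 (limma adjusted p = 0.000185). For Acadvl, the very-long-chain enzyme, the log2 change was -0.52 (limma adjusted p = 9.3e-11). In the annotation 42.9% of the exon bases of Acadvl are also covered by Dvl2 on the opposite strand, and Dvl2 had a log2 change of 0.45. The libraries were made with a stranded kit, but the strand setting of the count is not given in the sources used here.

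The enzymes downstream of the dehydrogenases were lower by small amounts. Echs1, the short-chain enoyl-CoA hydratase, held 3739, 4003 and 3822 normalized counts in the control libraries and 2557, 2509 and 2513 with dexamethasone. It fell by 0.61 on the log2 scale (standard error 0.04, limma adjusted p = 8.6e-13), with no overlap. Hadh, the 3-hydroxyacyl-CoA dehydrogenase of shorter chains, fell with a log2 change of -0.44 (limma adjusted p = 1.86e-10). Hadha and Hadhb encode the alpha and beta subunits of the mitochondrial trifunctional protein and are transcribed from neighbouring starts. Their log2 changes were -0.19 for Hadha (standard error 0.0378, limma adjusted p = 0.000108) and -0.39 for Hadhb (standard error 0.0398, limma adjusted p = 3.68e-09). For Hadhb, 16.7% of the 75-base positions also occur in other genes. The auxiliary enzymes for unsaturated acids, Eci1 and Decr1, had log2 changes of -0.31 (limma adjusted p = 3.01e-06) and -0.09 (limma adjusted p = 0.034). The call for Decr1 was lost without control replicate 2 or 3 and without dexamethasone replicate 2 (limma adjusted p = 0.0866, 0.116 and 0.149). The same held with no filter on low values, without the variance trend and with a replicate block (limma adjusted p = 0.0575, 0.0908 and 0.0946). Ehhadh, the bifunctional enzyme of peroxisomes, was low, with 56.9, 67.5 and 100 normalized counts in the control libraries and 52.5, 66.5 and 40.7 with dexamethasone. Its groups overlapped, and its log2 change was -0.47 (95% confidence interval -0.92 to -0.02, limma adjusted p = 0.057). Without control replicate 1 that of Ehhadh was -0.65 (limma adjusted p = 0.0186) and without dexamethasone replicate 2 -0.64 (limma adjusted p = 0.0135), within 0.0135 to 0.368 over all alternatives.

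As a group, the 15 shuttle and oxidation genes had as their median a log2 change of -0.36. Of these, 13 were lower (86.7%, against 35.2% of all tested genes) and 1, Acadl, was higher (6.67%, against 37.2%) at an adjusted p under 0.05. Among the 13, Decr1 lost the call in some alternatives. None of the 15 genes passed both cut-offs, against 11.7% higher and 10.6% lower among all tested genes. Their summed level per kb of exon was 15873, 16809 and 16254 normalized counts in the control libraries and 15047, 14033 and 14745 with dexamethasone. The ratio of the summed synthesis, desaturation and elongation genes to the summed shuttle and oxidation genes was 2.28, 2.38 and 2.29 in the control libraries and 3.45, 3.40 and 3.38 in the dexamethasone libraries. Every dexamethasone library had a higher ratio than every control library. A fixed scale factor per library cancels in such a ratio, but quantile normalization is not a fixed factor, and the ratio was not computed after it. Scd2 alone was 15821 of the mean sum of 37856 for the synthesis, desaturation and elongation genes in the control libraries. It was 14556 of 49818 with dexamethasone.

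The acyl-CoA thioesterases Acot1 and Acot2 had the most divergent changes of the 39 genes. Both release the fatty acid from coenzyme A, Acot1 in the cytosol and Acot2 in the mitochondrial matrix, and they lie on the same strand of chromosome 12. Acot1 held 151, 163 and 153 normalized counts in the control libraries and 534, 469 and 473 with dexamethasone. Acot2 held 4950, 4989 and 5058 normalized counts in the control libraries and 1576, 1561 and 1595 with dexamethasone. Neither gene had overlapping groups, and the replicates of Acot2 differed by little within each group. The log2 change was 1.65 for Acot1 (standard error 0.0935, limma adjusted p = 4.18e-14) and -1.66 for Acot2 (standard error 0.0392, limma adjusted p = 5.65e-22). Of the 75-base positions, 15.0% of Acot1 and 21.2% of Acot2 also occur in related genes of the family, so both counts are uncertain in that part. Per kb of exon Acot1 was 1.71% of the pair's sum in the control and 14.9% in the dexamethasone libraries, and Acot2 remained the more abundant in every library.

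**Figure D3:**
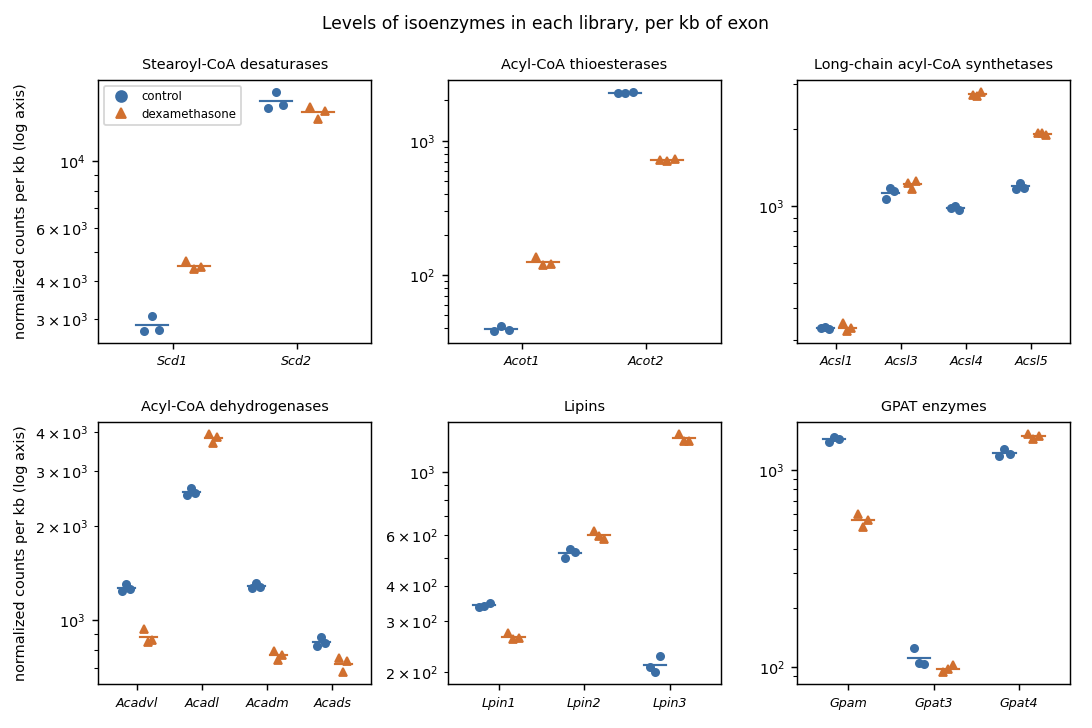
Normalized counts per kb of exon (log y axis) of isoenzymes in each library, with blue circles for control, orange triangles for dexamethasone and a line at each group mean. Acot1 and Acot2, Acadl and Acadm, and Gpam and Gpat4 moved in opposite directions, and Scd2 stayed above Scd1 in every library. The families were chosen for display after the values were seen.

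The lipases that release stored fatty acids were lower by small amounts. Pnpla2, the adipose triglyceride lipase, fell from 1501 ± 27.2 to 1210 ± 62.8 normalized counts (mean ± SD, n = 3 per group), a log2 change of -0.31 (limma adjusted p = 7.09e-06). Lipe, the hormone-sensitive lipase, held 224, 225 and 243 normalized counts in the control libraries and 183, 214 and 185 with dexamethasone. These values did not overlap by a small margin, and the log2 change of Lipe was -0.25 (standard error 0.106, limma adjusted p = 0.0357). The call was lost without control replicate 2 or 3 and without dexamethasone replicate 1 or 3 (limma adjusted p = 0.0508, 0.129, 0.109 and 0.101), and over all alternatives the adjusted p was 0.00506 to 0.129. A gene on the opposite strand, 4732471J01Rik, covers 15.6% of the exon bases of Lipe and had a log2 change of -0.75.

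Glycerolipid synthesis was marked by Gpam. This glycerol-3-phosphate acyltransferase of the outer mitochondrial membrane held 9324, 9892 and 9615 normalized counts in the control libraries and 3986, 3453 and 3744 with dexamethasone. The highest dexamethasone library was below every control library by a wide margin. Its log2 change was -1.37 (standard error 0.0437, limma adjusted p = 3.09e-19), and it was -1.53 to -1.31 over all alternatives. Lpin1, a phosphatidate phosphatase that makes diacylglycerol, fell from 3296 ± 56.4 to 2565 ± 72.2 normalized counts (mean ± SD, n = 3 per group), a log2 change of -0.36 (limma adjusted p = 1.58e-08). Dgat1 and Dgat2 catalyse the last step to triglyceride. Dgat1 had a log2 change of -0.20 (limma adjusted p = 0.000521). Dgat2 held 107, 139 and 115 normalized counts in the control libraries and 126, 131 and 91.9 with dexamethasone, overlapping groups with a log2 change of -0.06 (95% confidence interval -0.38 to 0.26, limma adjusted p = 0.737). Per kb of exon in the control libraries, Gpam stood at 1442 normalized counts, Dgat1 at 519.6 and Dgat2 at 39.1.

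The rest of the pathway was described by 5 lists of 117 genes, of which 113 were in the table and 93 passed the filter on low values. By both cut-offs 7 of the 93 were higher and 7 lower, 7.53% each, against 11.7% and 10.6% of all tested genes. At an adjusted p under 0.05 alone, 40 were higher (43.0%, against 37.2%) and 36 lower (38.7%, against 35.2%). Of 27 other oxidation genes tested, 6 were higher and 17 lower at an adjusted p under 0.05 alone (63.0% lower, against 35.2% of all tested genes), with a median log2 change of -0.18. Those lower by both cut-offs were Acadsb, Acad10, Acad12 and Acox2 (14.8%, against 10.6% of all tested genes). Acadsb, the dehydrogenase of short branched chains, held 8255, 8928 and 8631 normalized counts in the control libraries and 3712, 3617 and 3585 with dexamethasone, a log2 change of -1.24 (limma adjusted p = 1.12e-19). Acad10 and Acad12 had log2 changes of -1.08 and -1.07. Acox2, a peroxisomal oxidase of branched chains, had means of 27.8 and 2.98 normalized counts. Abcd2, a peroxisomal transporter, was the 1 gene higher by both cut-offs (3.70%, against 11.7%), with a log2 change of 1.01. That of Abcd2 was 0.88 without control replicate 1 and 0.94 without dexamethasone replicate 1. It was also under 1 at the same total (0.90), with edgeR (0.99) and with a pseudocount of 5 (0.98).

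**Figure D4:**
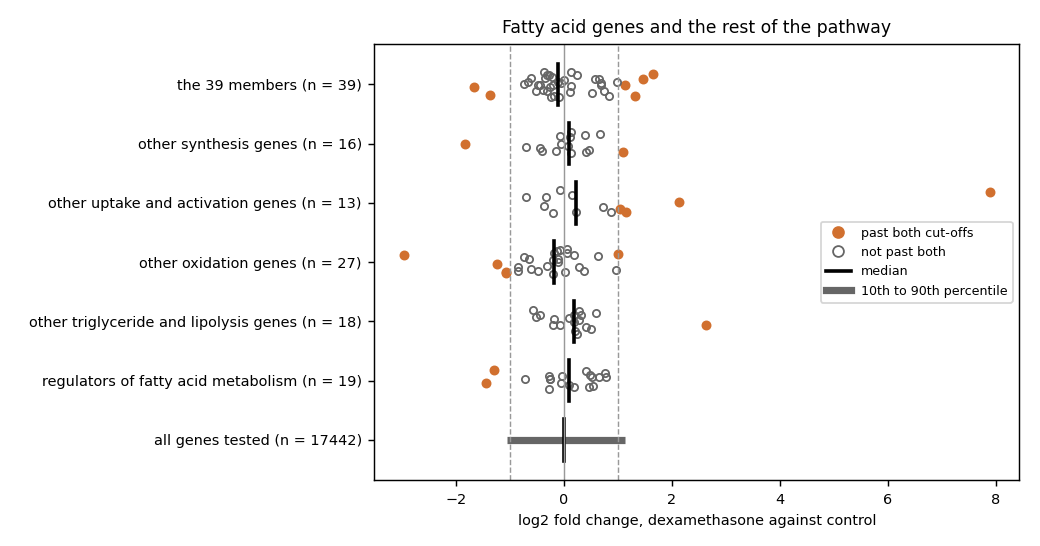
Log2 fold change of the 39 genes and of the other genes of the pathway, dexamethasone against control (x axis), by list (y axis). Points are genes, filled where both cut-offs (dashed lines) were passed, black lines are medians, and the grey bar spans the 10th to 90th percentile of all 17442 tested genes, from -1.05 to 1.13. The point near 8 is Acsbg1, with 4 reads or fewer in each control library, so its position depends on the added count of 1.

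Of 16 other synthesis genes tested, 7 were higher (43.8%, against 37.2% of all tested genes) and 5 lower (31.2%, against 35.2%) at an adjusted p under 0.05, shares near the background. Hsd17b12, the ketoacyl reductase that works with the elongases, held 7876, 8103 and 8162 normalized counts in the control libraries and 16838, 17245 and 17425 with dexamethasone. Its log2 change of 1.09 (limma adjusted p = 2.1e-19) was 0.98 at the same total and 0.88 after quantile normalization. Other elongation genes of this list were mixed in direction. Elovl7 and Elovl4 were higher, with log2 changes of 0.66 and 0.47. Hacd1, Hacd2 and Tecr were lower, with log2 changes of -0.44, -0.41 and -0.15, and Hacd3 did not pass the test (limma adjusted p = 0.155). The putative desaturase Fads6 fell, with 281, 373 and 326 normalized counts in the control libraries and 88.7, 86.1 and 95.3 with dexamethasone. Me1, the malic enzyme that supplies NADPH to synthesis, had a log2 change of -0.70 (limma adjusted p = 4.79e-15).

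Among 13 genes of uptake and activation tested, 8 were higher (61.5%, against 37.2% of all tested genes) and 4 lower (30.8%, against 35.2%) at an adjusted p under 0.05. Slc27a1, a fatty acid transport protein, held 467, 480.5 and 452 normalized counts in the control libraries and 2107, 2044 and 1994 with dexamethasone, a log2 change of 2.13 (limma adjusted p = 3.29e-21). Acsbg1, an acyl-CoA synthetase of the bubblegum family, was nearly absent from the controls, at 4, 3 and 3 reads per library, against 986, 879 and 858 reads with dexamethasone. Dbi, the acyl-CoA binding protein, had a log2 change of 1.04 that was 0.92 at the same total, and Acsm3, a medium-chain synthetase, had one of 1.15 that was 0.94 without control replicate 2. Acot7, a further cytosolic thioesterase, had a log2 change of 0.87 (limma adjusted p = 3.02e-16), and Acot13, a mitochondrial one, had one of -0.37 (limma adjusted p = 5.11e-07).

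Of 18 other genes of triglyceride synthesis and lipolysis, 10 were higher (55.6%, against 37.2% of all tested genes) and 3 lower (16.7%, against 35.2%) at an adjusted p under 0.05. Lpin3, a relative of Lpin1 with the same activity, held 768, 735 and 839 normalized counts in the control libraries and 5027, 4732 and 4748 with dexamethasone. It passed both cut-offs, with a log2 change of 2.63 (standard error 0.0499, limma adjusted p = 6.6e-24). The ratio of Lpin3 to Lpin1 per kb of exon was 0.62 ± 0.0339 (SD, n = 3) in the control and 4.93 ± 0.0434 (SD, n = 3) in the dexamethasone libraries. Gpat4, the enzyme of the endoplasmic reticulum that catalyses the same reaction as Gpam, had a log2 change of 0.29 (limma adjusted p = 2.72e-07). The ratio of Gpat4 to Gpam per kb was 0.851 ± 0.0116 (SD, n = 3) in the control and 2.68 ± 0.105 (SD, n = 3) in the dexamethasone libraries. Plin2, a lipid droplet coat protein, had a log2 change of 0.60 (limma adjusted p = 1.56e-12).

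Of 19 regulators of the pathway, 9 were higher (47.4%, against 37.2% of all tested genes) and 7 lower (36.8%, against 35.2%) at an adjusted p under 0.05. The sterol-responsive factors Srebf1 and Srebf2, which drive lipogenic and sterol genes, had log2 changes of 0.47 (limma adjusted p = 8.92e-11) and 0.54 (limma adjusted p = 4.13e-11), and their escort Scap one of 0.40 (limma adjusted p = 2.83e-09). Insig1, a retention protein for that complex, had a log2 change of 0.78 (limma adjusted p = 6.2e-14) and its relative Insig2 one of -0.73 (limma adjusted p = 1.25e-14). The catalytic subunits of AMP-activated kinase, which phosphorylates acetyl-CoA carboxylase, also moved apart. Prkaa2 held 1779, 1866 and 1760.2 normalized counts in the control libraries and 703, 774 and 714 with dexamethasone, a log2 change of -1.30 (limma adjusted p = 7.52e-17), and Prkaa1 had a log2 change of 0.64 (limma adjusted p = 1.1e-14). Nr1h3, a liver X receptor, was lower by both cut-offs at means of 44.8 and 16.5 normalized counts. Ppara, the receptor best known for oxidation genes in liver, had at most 1 read in any library, under the 3 reads that a count of 0 allows, so no difference was detectable at this depth.

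Markers of cell types and of proliferation moved between the same libraries. All 12 proliferation genes rose by both cut-offs (100%, against 11.7% of all tested genes). Their sum was 45147 to 48252 normalized counts in the control and 270290 to 284210 in the dexamethasone libraries. Of 12 adipocyte markers, 11 were in the table, 4 were tested, and the sum was 511 to 624 normalized counts in the control and 2098 to 2230 in the dexamethasone libraries. Fabp4, with 3 reads or fewer in each control library, reached 1448 ± 63.4 (SD, n = 3) normalized counts and was at least 522-fold higher against a limit of 3 reads per library. In the dexamethasone libraries it made up most of that sum. Of the other tested adipocyte markers, Cebpa had a log2 change of 0.98 (limma adjusted p = 6.9e-09), Plin4 of -0.72 (limma adjusted p = 4.52e-06) and Pparg of -0.0012 (95% confidence interval -0.61 to 0.61, limma adjusted p = 0.997). Among the adipocyte markers too low to be tested, Adipoq, Lep, Plin1, Cidec, Cd36 and Adrb3 had at most 9 reads in any library. Cfd, likewise untested, was higher in every dexamethasone library than in any control library. Its normalized counts averaged 2.49 for control and 16.9 for dexamethasone. All 12 osteoblast markers were tested. By both cut-offs 8 were lower (66.7%, against 10.6% of all tested genes) and 2 higher (16.7%, against 11.7%). The 12 summed to 2013400 to 2142300 normalized counts in the control and 2014100 to 2146200 in the dexamethasone libraries. Within these near-equal sums Spp1 rose 38.1-fold, whereas Col1a1 fell to 0.272 and Col1a2 to 0.484 of the control level. Dmp1, an osteocyte marker, rose 146-fold. Bglap, which encodes Osteocalcin, held 98.2, 102 and 122 normalized counts in the control libraries and 9.54, 11.99 and 15.1 with dexamethasone. Myeloid markers summed to 1957 to 1998 normalized counts in the control and 2459 to 2745 in the dexamethasone libraries. Of 8 tested, 3 were higher by both cut-offs, Cd53, Itgb2 and Cd68 (37.5%, against 11.7% of all tested genes). Lower by both were 2, Lyz2 and Laptm5 (25.0%, against 10.6%). Laptm5 was low, at means of 19.2 and 6.41 normalized counts. Cd53 rose 18.1-fold, Itgb2 9.22-fold and Cd68 3.45-fold, Lyz2 fell to 0.352 of the control level, and the pan-leukocyte marker Ptprc had 5 reads or fewer in each library. The 9 endothelial markers in the table summed to 2187 to 2319 and 3304 to 3911 normalized counts, most of it Vwf. Of 6 tested, 4 were higher at an adjusted p under 0.05 (66.7%, against 37.2% of all tested genes). Their log2 changes were 1.204 for Esam, 0.76 for Vwf, 0.74 for Pecam1 and 0.25 for Kdr. Esam and Pecam1 were low, with control means of 14.3 and 15.7 and dexamethasone means of 33.0 and 26.3 normalized counts. Tek had a log2 change of -0.75 (limma adjusted p = 0.146) and Egfl7 one of 0.12 (limma adjusted p = 0.802). Cdh5 was not tested at means of 0.612 and 1.75. Lymphoid markers summed to 15.1 or less, erythroid markers to 52.3 or less and muscle markers to 233 or less in every library. The part of these markers, and of proliferation, in the changes of the fatty acid genes was not tested.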

How the data were processed

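Total RNA of bone cells was sequenced as stranded mRNA libraries, 3 control and 3 dexamethasone, grouped by the treatment in the labels. Per the study's methods and the submitters' processing notes, the authors aligned and counted reads with STAR (version 2.7.10a) on GRCm39 and normalized with DESeq2 (version 1.36.0). The deposited values are a signal, counts divided by a size factor per library. The annotation release and the strand setting are not given in the sources used here. Every value was a whole multiple of 1 read within a tolerance of 0.001, so reads were recovered for 100% of the values, 72596611 to 89910728 per library. Of 29616 identifiers, 28087 had a symbol in GENCODE M21, which is on GRCm38 and was used for names, exon lengths and shared sequence, with no gene coordinates. Promoters are from RefSeq on GRCm38.p6.

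Genes averaging 10 or more normalized counts over the 6 libraries were compared as log2(normalized count + 1) with limma (version 3.58.1, R version 4.3.3, trended variance) and Benjamini-Hochberg adjustment over all 17442 genes, and called at an adjusted p under 0.05 and a log2 change past 1 or -1. The added 1 understates the change of genes with few reads. The fit was tested on simulated data. P-values measure only the spread between these samples. Alternatives used edgeR (version 4.0.16) and DESeq2 (version 1.42.0) on recovered reads, other pseudocounts, filters and scalings, and each library left out. A group of 3 against 3 cannot give an exact permutation p under 0.1, so no single-gene permutation test was used. The floor of 3 reads for a count of 0 covers counting error only.

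The 39 genes and all lists were chosen with earlier results of these data known. All 39 are named, and of each pathway list the genes past both cut-offs, at most 6 with a mean of at least 100. Acox2, Nr1h3, Acot4 and genes named outside this rule, and the pairs of isoenzymes, were chosen after their values were seen and are descriptions. Values of some genes of the pathway lists are not reported here.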

Additional observations from a re-analysis of the deposited data

How the results depend on the processing

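Depth was ample for most of the 39 genes, and Acacb, Ehhadh, Acot1, Lipe and Dgat2, the least abundant of them, had the widest intervals. Without the requirement on the fold change, 15 of the 39 genes were higher, 20 were lower, and 12645 of all genes passed, against 3894. Among genes averaging 100 or more normalized counts, 2170 genes passed. The median log2 change of the 39 genes was -0.12, against -0.23 at the same total and -0.18 after quantile normalization, where the median of all genes was -0.113 and -0.0746. At the same total 45.1% of all calls were higher, against 52.3%. With each library left out, 4 to 5 of the 39 were called higher and 2 lower, the median was -0.15 to -0.08, 3878 to 3910 genes passed, and 14 to 16 and 17 to 21 of the 39 were higher and lower at an adjusted p under 0.05 alone.

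Quantile normalization reversed Fads3 (-0.0921), Elovl1 (-0.0438), Acsl1 (-0.145), Acsl3 (-0.0736) and Dgat2 (0.0404), and the same total reversed Acsl1 (-0.108) and Acsl3 (-0.00518). Acsl1 was also -0.019 with edgeR and -0.00187 with DESeq2, and was -0.0202 to 0.0275 with a library left out, below 0 without control replicate 3 or dexamethasone replicate 1. Dgat2 was 0.0457 without control replicate 2 and 0.0988 without dexamethasone replicate 3. The cause was not tested. Of the 6 genes called by both cut-offs, Elovl6 alone lost its call, after quantile normalization (0.97).

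Replicate numbers were not treated as pairs in the main fit. The deviations of same-numbered libraries correlated at -0.0999, -0.105 and -0.0199, which cannot show that the samples were unpaired. Per the study's methods littermates served as controls, and which libraries came from littermates is not given in the sources used here. With a replicate block, 4 of the 39 were called higher and 2 lower, 3897 genes passed, and 15 and 18 were higher and lower at an adjusted p under 0.05 alone, where Scd2, Decr1 and Lipe lost the test and Ehhadh passed it.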

Other observations

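The thioesterase family beyond Acot1 and Acot2 was mixed in direction. Acot4, a peroxisomal member that shares sequence with Acot2, held 95.5, 91.98 and 102 normalized counts in the control libraries and 437, 409 and 417 with dexamethasone, a log2 change of 2.12 (limma adjusted p = 2.73e-15). Its groups did not overlap. Acot6 had means of 236 and 199 normalized counts and a log2 change of -0.26 (limma adjusted p = 0.044), and Acot3 was at or under 2.18 normalized counts in every library. Acot9, a mitochondrial member, had a log2 change of 0.15 (limma adjusted p = 0.00138), Acot8, a peroxisomal one, of -0.34 (limma adjusted p = 6.34e-05), and Acot11 of -0.31 (limma adjusted p = 0.00198). Acot12, the other member lower by both cut-offs, had means of 16.4 and 5.25 normalized counts and a log2 change of -1.48 (limma adjusted p = 0.00338).

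Further genes of the other oxidation list were lower and others higher. Higher at an adjusted p under 0.05 were Hsd17b10, Acad9, Acaa2 and Cpt1b, with log2 changes of 0.37, 0.28, 0.20 and 0.96. Cpt1b was low, at means of 10.4 and 21.4 normalized counts. Ech1 had a log2 change of -0.74 (limma adjusted p = 6.57e-13), Decr2 one of -0.64 (limma adjusted p = 6.37e-13) and Acox3 one of -0.48 (limma adjusted p = 1.8e-10). Pdk4, the kinase that restrains pyruvate entry and is a known glucocorticoid-responsive gene in other tissues, went the other way, from 6871 ± 112 to 10670 ± 627 normalized counts (mean ± SD, n = 3 per group), a log2 change of 0.63 (limma adjusted p = 2.96e-13).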
